A study of Mus musculus with 6 samples.

Results

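The 10 imprinted growth genes described here are Mest, Peg3, Zim1, Sgce, Peg10, Plagl1, Grb10, Ndn, Gnas and Slc38a4, which lie outside the Dlk1-Dio3 domain. They were taken by symbol from the probe sets that name a single gene, and all 10 had one, among 22180 genes in all. Per gene, the probe set was chosen by its mean signal over all 6 arrays, the highest being kept. This mattered for Plagl1, whose probe sets had means of 6.09 and 3.29 on the log2 scale. The genes were chosen with earlier results of these data known, so the choice supports nothing by itself.

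RNA came from mouse embryonic fibroblasts (MEFs), connective tissue cells grown from embryos, on an F1 background written as C57Bl6N x 129Sv. The wild type cells are labelled Pax7+/+ and the knockout cells Pax7-/-, with 3 Affymetrix arrays each, and both were collected at confluence with no other treatment. How the Pax7 gene was disrupted, the stage and number of the embryos, and which cultures share a replicate number are not stated in the labels, so p-values measure the spread between these samples only. Values are RMA signals (robust multi-array average) on a log2 scale, and every difference is knockout minus wild type on that scale.

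An imprinted gene is expressed mainly from the copy inherited from 1 parent, marked by DNA methylation set in the egg or sperm. Many paternally expressed genes promote embryonic growth and many maternally expressed ones restrain it, and a set of them is active together in embryonic mesenchyme and declines after birth. Mest, Peg3, Sgce, Peg10, Plagl1, Ndn and Slc38a4 are expressed from the paternal copy, Zim1 from the maternal copy, Grb10 from the maternal copy in most tissues, and Gnas in a way that depends on the transcript. The arrays do not tell the parental copies apart.

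The promoters of the pair with the lowest differences between knockout and wild type, Mest and Peg3, are shown because imprinted promoters are often rich in CG, the dinucleotide that carries the methyl mark. Each runs from 250 bases before to 50 bases after an annotated start, 5′ to 3′ on the gene's strand, from RefSeq on GRCm38.p6, and capitals mark every CG. For Mest, the upstream start (chr6:30733256-30733555, plus strand) and a start farther into the gene (chr6:30737800-30738099, plus strand) are given, and for Peg3 its start at chr7:6730370-6730669 (minus strand).
Mest upstream: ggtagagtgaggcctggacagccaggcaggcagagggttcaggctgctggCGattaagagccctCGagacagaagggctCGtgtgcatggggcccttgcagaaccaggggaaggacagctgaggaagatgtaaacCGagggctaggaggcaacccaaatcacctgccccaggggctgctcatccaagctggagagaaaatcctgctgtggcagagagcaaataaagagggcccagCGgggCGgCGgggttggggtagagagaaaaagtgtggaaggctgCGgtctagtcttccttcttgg
Mest downstream: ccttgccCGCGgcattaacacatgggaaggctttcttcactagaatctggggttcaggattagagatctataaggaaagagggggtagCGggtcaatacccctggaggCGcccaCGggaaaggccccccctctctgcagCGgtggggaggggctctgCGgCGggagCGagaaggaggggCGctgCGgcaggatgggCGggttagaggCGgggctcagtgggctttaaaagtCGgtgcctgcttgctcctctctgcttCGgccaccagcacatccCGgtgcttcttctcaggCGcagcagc
Peg3: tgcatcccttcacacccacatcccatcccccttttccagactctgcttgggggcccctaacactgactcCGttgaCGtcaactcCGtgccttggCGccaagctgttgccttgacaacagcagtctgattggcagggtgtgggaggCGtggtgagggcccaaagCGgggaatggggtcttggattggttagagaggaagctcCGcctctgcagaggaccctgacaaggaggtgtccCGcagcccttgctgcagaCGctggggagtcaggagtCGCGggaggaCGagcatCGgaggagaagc

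The upstream Mest promoter held 8 CG and the downstream one 17, and that of Peg3 held 13, against a median of 7 over 32851 promoters of the same length. Of the members, 8 had an entry in this table (not Sgce and Peg10), with 16 starts in all. The CG count was highest at a start of Grb10, with 45, and lowest at the 3 starts of Slc38a4, with 5 each. A search on both strands for GGGGCCCC, letters bound by the Plagl1 protein, found 1 match in the 16 windows, at base 50 of the Peg3 promoter, and 1.08% of all promoters held one. GTCACG, core letters of the site bound by the paired domain of Pax proteins, was in 1 of the 16, that of Plagl1, and in 8.22% of all. These letters were taken up after a first search, with a homeodomain motif of Pax proteins and a motif of the Peg3 protein, had found no match in these windows. GCCATNTT, bound by YY1, was in 1, a start of Slc38a4 (6.05% of all). No match overlapped another, and a match describes letters only, not binding.

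Before the members, the arrays themselves are described. On replicates 1, 2 and 3, Pax7 had log2 signals of 6.14, 5.65 and 4.88 (wild type) and of 6.17, 5.95 and 5.05 (knockout), so its probe set did not separate the genotypes. No source used here says whether this probe set reads the disrupted stretch, and if it does not, it is no check of the genotype. Both replicate 3 arrays stood apart: they correlated at 0.988 with each other and at 0.789 to 0.824 with the other 4. Their signals were also spread more widely, with an interquartile range over genes of 3.02 and 2.98, against 1.61 to 1.69 on the others. Differences on replicate 3 are thus on a wider scale, and the means over pairs given below are not corrected for this. A background level, set per array at the 95th percentile of signals of 1390 genes for olfactory or vomeronasal receptors, was 5.34 to 5.44 on replicates 1 and 2 and 4.63 to 4.65 on replicate 3. The cell type label reads ESCs (embryonic stem cells), against the titles: all 8 fibroblast markers were above background on all 6 arrays, while 5 of 8 pluripotency markers (Sox2, Zfp42, Esrrb, Dppa5a and Tdgf1) were above it on none and Pou5f1 was above it on all 6.

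Mest and Peg3 had the lowest knockout signals relative to wild type of the 10 genes, about 2.0-fold and 1.5-fold lower, and the other members above background lay within 0.25 of 0 on the log2 scale. No member passed the threshold of an adjusted p of 0.05. In limma, with genotype as the only term, 0 of 10 members passed, where 0% of all genes did, and 0 members had an unadjusted p under 0.05, as did 0.0676% of all genes. With the replicate number as a block, which compares the genotypes within each number, 0 of 10 members passed again, where 17 of 22180 genes (0.0766%) did, and 2 members, Mest and Peg3, had an unadjusted p under 0.05, as did 6.73% of all genes.

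**Figure D1:**
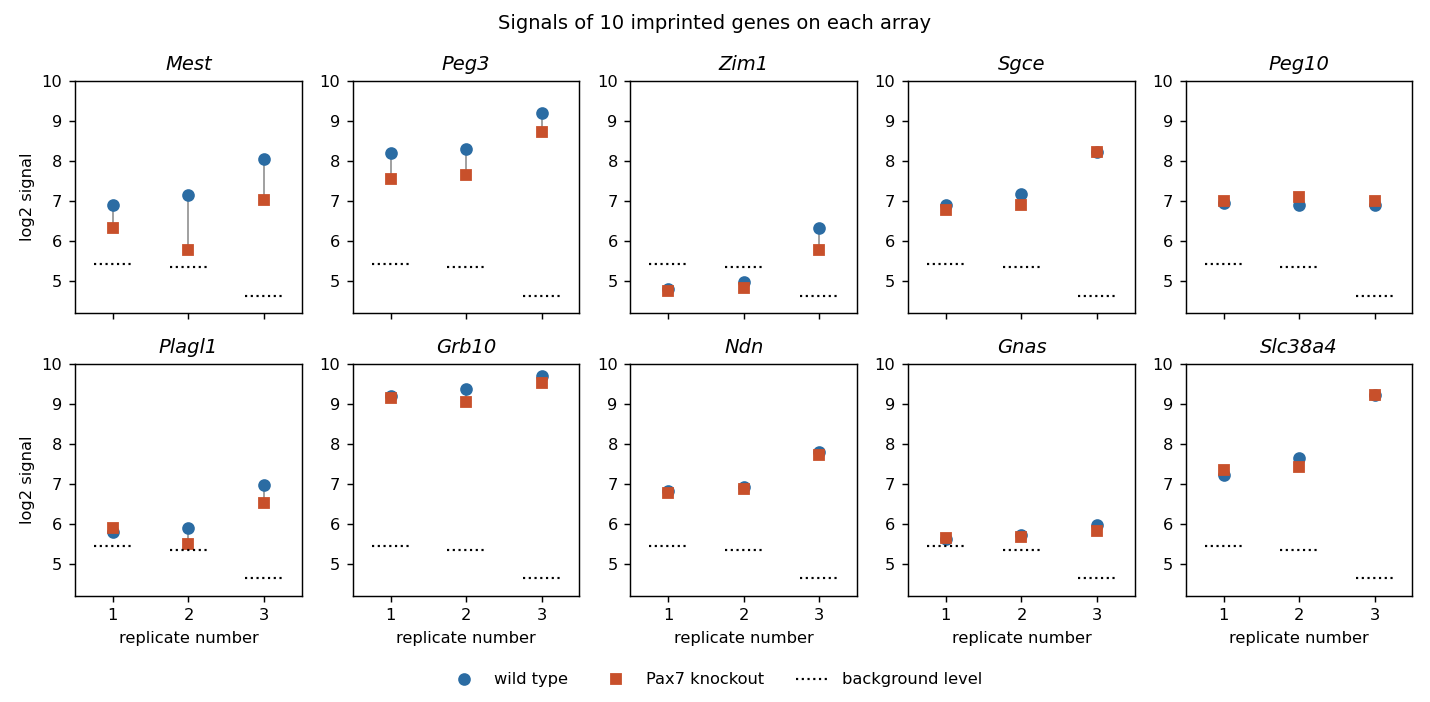
Log2 signal (vertical axis) of each of the 10 genes on the 6 arrays by replicate number, circles for wild type and squares for knockout, with grey lines joining equal numbers and dotted lines at the background level (mean of both genotypes). Mest and Peg3 have the knockout below the wild type at every number, most genes are brighter on replicate 3, and Zim1 lies below background on replicates 1 and 2.

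Mest encodes an enzyme-like protein of the endoplasmic reticulum with an alpha/beta hydrolase fold, and loss of its active copy reduces embryonic growth. Wild type replicates 1, 2 and 3 had log2 signals of 6.91, 7.15 and 8.04, against 6.33, 5.78 and 7.03 in the knockout. The knockout was the lower in each pair of equal numbers, while the genotypes overlapped as groups because knockout replicate 3 was brighter than wild type replicate 1. The pair differences were -0.59, -1.36 and -1.01, a mean of -0.99 ± 0.39 (SD, n = 3 pairs), or a signal 1.98-fold lower. This was the 10th lowest difference of all 22180 genes. The arrays do not match replicates 1 and 2 by number between the genotypes (correlation of their difference 0.043). The SD over pairs, and the SE and adjusted p with the replicate block, therefore rest on the numbering, for Mest and the other members. The mean does not.

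The Mest difference had an SE of 0.44 without a block (limma, adjusted p = 1) and of 0.14 with it (adjusted p = 0.0556). It lay on either side of the threshold depending on how the replicates entered. With replicate 3 against replicates 1 and 2 as a batch block it passed (limma, adjusted p = 0.0490; 0.0857% of all genes passed), as it did with the replicate block and without replicate 1 (-1.19, adjusted p = 0.000138; 0.442% of genes passed), and without replicates 2 and 3 it did not (-0.80, adjusted p = 0.204, and -0.97, adjusted p = 0.110). Over all 10 fits with a block the adjusted p ran from 0.000138 to 0.204, and 4 passed. Among the genes of each array, Mest ranked between the 86.7th and 90.0th percentile in wild type and between the 65.4th and 78.8th in the knockout, so by rank the genotypes did not overlap. This was also the case for 1.65% of the genes above background in both genotypes, in the same direction. In RNA from whole cultures, fewer cells that express a gene and less RNA per cell cannot be told apart.

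The span of Mest holds the microRNA gene Mir335, and its 5p product is shown with the seed (bases 2 to 8) in capitals because host and microRNA share a transcribed region, at chr6:30741314-30741336 (plus strand).
mmu-miR-335-5p: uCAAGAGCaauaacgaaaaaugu
The Mir335 probe set had log2 signals of 3.89, 4.01 and 4.05 in wild type and of 3.93, 3.93 and 3.56 in the knockout. It lay above background on 0 of 6 arrays, so no difference is given for it. Of the other genes of the Mest region, Copg2, a coat protein gene whose end meets that of Mest, was at -0.01, with 0.23, -0.41 and 0.14 in the 3 pairs. Of 8 tested relatives of Mest, 5 were above background in both genotypes and 0 passed in either fit. Among these 5, Abhd4 (0.24) and Abhd6 (0.20) had the smallest p.

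By a rule that took the 3 genes with the smallest Euclidean distance over the 6 arrays, after centring each gene on its own mean, the patterns most like that of Mest among the 11764 other genes above background were those of Igfbp2 (distance 0.33), which binds insulin-like growth factors, the water channel Aqp1 (0.39) and the latexin gene Lxn (0.46). Their mean differences were -1.003, -0.79 and -0.70. All share the replicate 3 shift and were found by their likeness on these same arrays.

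Peg3 encodes a large zinc finger protein that regulates transcription and is needed for normal growth and maternal care. The 3 wild type arrays read 8.20, 8.30 and 9.20 on the log2 scale, in order of replicate number, and the knockout arrays 7.55, 7.66 and 8.73. The knockout was lower in each pair, and the genotypes overlapped only through knockout replicate 3. On replicates 1 and 2 both knockout arrays read below both wild type arrays, whatever their numbering. The amounts in these pairs, and so the SD, do rest on the numbering. The pair differences were -0.65, -0.65 and -0.47, a mean of -0.59 ± 0.10 (SD, n = 3 pairs), or 1.51-fold lower. The SE was 0.44 without a block (limma, adjusted p = 1) and 0.09 with it (adjusted p = 0.0827).

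Peg3 ranked without overlap between genotypes, as did Mest and, by a narrow margin only, Sgce. Thus 3 of the 9 members above background ranked lower on every knockout array than on any wild type array (1.65% of genes above background did). The members were chosen with earlier results known, and this measure after the values were seen, so the count is no separate evidence. By signal, the genotypes overlapped for each of these 3. Peg3 lay between the 95.5th and 96.7th percentile of genes in wild type and between the 92.7th and 94.1st in the knockout. Its adjusted p ran from 0.0317 to 0.299 over the 10 fits with a block and passed in 2: with only genes above background tested (0.0495; 0.275% of those genes passed) and with a trended, robust variance estimate (0.0317; 0.207% of genes passed). A second probe set names Peg3 along with its antisense gene Peg3os, whose transcript cannot be told apart from Peg3 in it. Its pair differences were -0.26, -0.23 and -0.06. On replicates 1 and 2 its signals of 5.06 to 5.45 lay below background, except in wild type replicate 1 (5.45 against 5.44). Only on replicate 3, where the difference was -0.06, was this probe set above background in both genotypes.

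Zim1, a zinc finger gene next to Peg3 in the same imprinted cluster, was barely measured. Log2 signals were 4.81, 4.99 and 6.33 in wild type, against 4.77, 4.83 and 5.79 in the knockout, above background on replicate 3 alone in both genotypes. The knockout mean of 5.13 was not above background, so no fold is given. On replicate 3, a single pair, the knockout was lower by 0.55, and this has no replicate check. Usp29, on the other side of Peg3 and sharing its promoter region, was not above background.

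Plagl1, also called Zac1, is a zinc finger transcription factor that slows the cell cycle and acts on other imprinted genes such as Igf2 and H19. In wild type it read 5.80, 5.89 and 6.96 on the log2 scale, and 5.90, 5.49 and 6.53 in the knockout. The pairs were mixed, at 0.10, -0.40 and -0.43, with a mean of -0.24 ± 0.30 (SD, n = 3 pairs; limma with the block, adjusted p = 0.776). Its 95% interval with the block ran from -0.51 to 0.03. Its relatives Plag1 and Plagl2 were at -0.21 and 0.07, and neither passed.

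**Figure D2:**
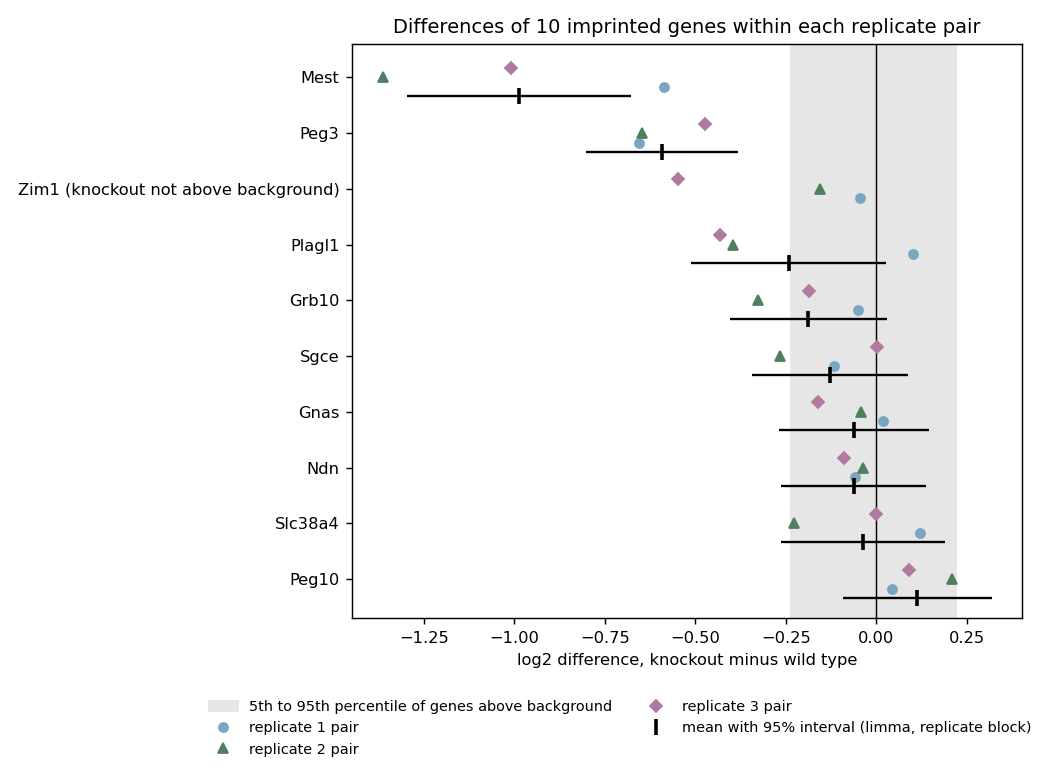
Log2 difference, knockout minus wild type (horizontal axis), of each gene in the 3 replicate pairs, with the mean and its 95% interval from limma with the replicate block. The grey band spans the 5th to 95th percentile of the mean differences of all genes above background (-0.24 to 0.22). Single pairs can spread more widely than these means. Mest and Peg3 lie left of the band in every pair, and the other means drawn lie in or at the edge of it.

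Among the signalling members, Grb10 encodes an adaptor that dampens insulin and IGF1 receptor signalling. It had log2 signals of 9.19, 9.37 and 9.70 in wild type and 9.14, 9.05 and 9.51 in the knockout. The knockout was lower in each pair (-0.05, -0.33 and -0.19), with a mean of -0.19 ± 0.14 (SD, n = 3 pairs; limma with the block, adjusted p = 0.784) and genotypes that overlapped. Of 7 partners of Grb10, among them Insr, Igf1r, Irs1, Irs2 and the ubiquitin ligase Nedd4, 0 passed and their median difference was 0.04. Igf1r, the receptor itself, was at 0.06 and Nedd4 at -0.07.

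Gnas encodes the stimulatory G protein alpha subunit, which activates adenylyl cyclase. The arrays read 5.63, 5.71 and 5.97 in wild type and 5.65, 5.67 and 5.81 in the knockout on the log2 scale, a mean difference of -0.06 ± 0.09 (SD, n = 3 pairs). The 95% interval with the block was -0.27 to 0.15. On replicates 1 and 2 the signals lay only a little above the background level of 5.34 to 5.44, so the difference was read near background there. The transcripts of the locus differ in their expressed copy, and no source used here says which of them this probe set reads. A further probe set that names Gnas with its antisense gene was at -0.05, with signals of 4.65 to 4.98, below background on replicates 1 and 2. Of 11 other G alpha subunits, 8 were above background in both genotypes and 0 passed, with a median of 0.04.

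Of 18 tested effectors of this pathway (cyclases, protein kinase A subunits, phosphodiesterases and CREB factors), 13 were above background in both genotypes. None passed in either fit, and the median of the 13 was -0.05. Prkar2b, a regulatory subunit of protein kinase A, had the smallest p, at -0.47 (-0.40, -0.53 and -0.47 in the pairs; limma with the block, SE 0.09, adjusted p = 0.168). Adcy2, a cyclase, was next, at 0.40 (SE 0.10).

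Slc38a4 encodes a carrier of neutral amino acids that supplies the fetus through the placenta. Signals were 7.22, 7.65 and 9.22 (log2) in wild type and 7.34, 7.42 and 9.22 in the knockout. It was the member with the largest step to replicate 3, by 1.79 in wild type and 1.84 in the knockout, while its genotype difference was -0.04 ± 0.18 (SD, n = 3 pairs; 95% interval with the block -0.26 to 0.19). Its chromosomal neighbours and relatives Slc38a1 and Slc38a2 were at 0.15 and -0.02, and of 8 relatives 0 passed.

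Sgce and Peg10 lie head to head and share a promoter region, and they differed in 2 ways. Sgce, a sarcoglycan of the dystrophin-associated complex, had log2 signals of 6.90, 7.18 and 8.22 in wild type and 6.79, 6.91 and 8.23 in the knockout, and pair differences of -0.12, -0.27 and 0.00 (mean -0.13 ± 0.13, SD, n = 3 pairs). By rank its genotypes were apart by a narrow margin, with percentiles of 88.40 to 90.28 in wild type and 86.59 to 88.39 in the knockout. Peg10, a gene derived from a retrotransposon and needed for the placenta, had 6.958, 6.892 and 6.909 in wild type and 7.001, 7.100 and 6.998 in the knockout. Every knockout array of Peg10 was brighter than every wild type array, by small amounts of 0.04, 0.21 and 0.09 in the pairs (mean 0.11 ± 0.09, SD, n = 3 pairs; limma, SE 0.15 without and 0.09 with the block, adjusted p = 1 and 0.869). Such a lack of overlap in this direction was seen in 0.637% of the genes above background. By rank the genotypes of Peg10 overlapped, with percentiles of 73.33 to 89.41 in wild type and 74.75 to 90.08 in the knockout.

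Sgce was brighter on replicate 3 by 1.18 in wild type and 1.38 in the knockout, whereas Peg10 moved by -0.02 and -0.05. By rank Peg10 was lowest on replicate 3, at percentiles of 73.33 in wild type and 74.75 in the knockout. The median step to replicate 3 was 0.95 and 0.89 over the 9 members above background and 0.82 and 0.79 over all genes above background. Over all genes, with those below background, it was -0.0955 and -0.0976. The genes most like Peg10 over the 6 arrays, by the same rule as for Mest, were Tpd52, Parp11 and Limd2, with differences of 0.15, 0.07 and 0.10. Of 8 tested genes of the dystrophin complex 0 passed, with utrophin, Utrn, at -0.07, and of 4 tested other sarcoglycans 0 passed. Of 5 tested relatives of Peg10, 3 were above background in both genotypes and 0 passed in either fit. Among these 3, Rtl3 had the smallest p, at -0.16, -0.91 and -0.87 in the pairs (mean -0.65, limma with the block, SE 0.14, adjusted p = 0.282). Ldoc1 was next, at -0.28.

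Ndn encodes necdin, a protein of the MAGE family that restrains the cell cycle and binds E2F factors. For Ndn the log2 signals were 6.83, 6.91 and 7.80 in wild type, against 6.77, 6.87 and 7.71 in the knockout. The knockout was lower in each pair of equal numbers, by small amounts of -0.06, -0.04 and -0.09 (mean -0.06 ± 0.03, SD, n = 3 pairs). This rests on the numbering, since knockout replicate 2 (6.87) read above wild type replicate 1 (6.83). The arrays do not match replicates 1 and 2 by number between the genotypes (correlation of their difference 0.043). limma with the block gave an SE of 0.09, which is larger than the spread of these pairs because it is drawn toward that of all genes (95% interval -0.26 to 0.14). Its neighbour and relative Magel2 was not above background, and Maged1, another relative, was at -0.04.

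**Figure D3:**
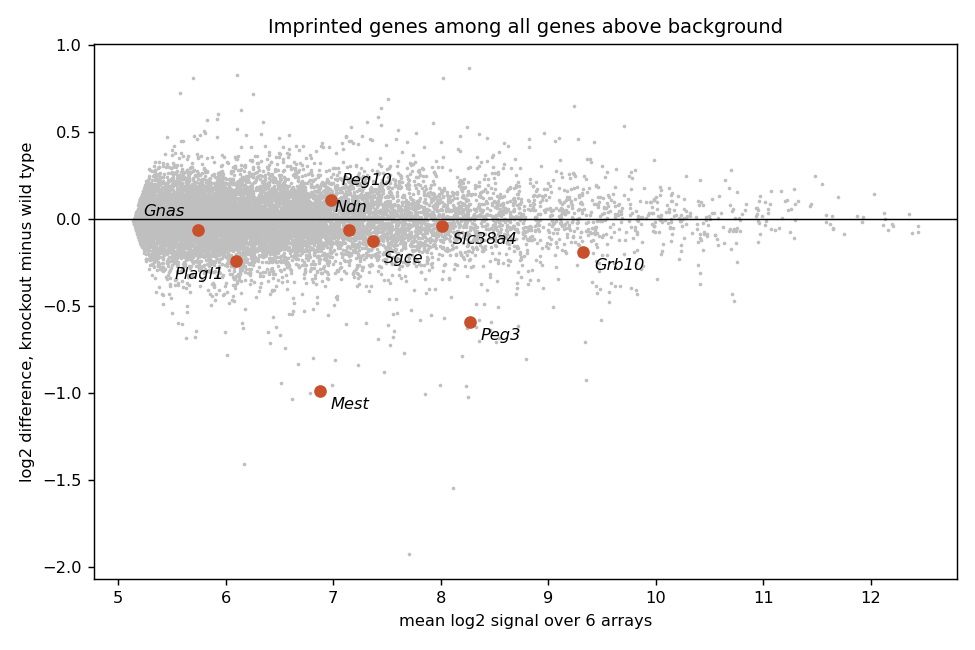
Log2 difference, knockout minus wild type (vertical axis), against mean log2 signal over 6 arrays (horizontal axis) for the 11765 genes above background in both genotypes, in grey, with 9 of the 10 imprinted genes in colour (Zim1 is left out). Mest (-0.99) and Peg3 (-0.59) lie at the lower edge of the cloud and the others within it.

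Over the 9 members above background, 8 had a negative mean difference (51.4% of all genes above background did). In all 3 pairs 4 were lower, Mest, Peg3, Grb10 and Ndn (15.1% of genes), for Ndn only as replicates 1 and 2 are numbered. Only Peg10 was higher in all 3 pairs (14.5% of genes), and 4 were mixed. The median was -0.13, against -0.00 over all genes above background. It was -0.05, -0.27 and -0.16 in pairs 1, 2 and 3, and without Mest and Peg3 the median of the other 7 was -0.06. With Zim1 included the median of the 10 was -0.16. By expressed copy, the 7 paternally expressed members had a median of -0.13, with 6 of 7 lower in the mean.

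Other imprinted genes of the same growth network were read as partners. Of 8 tested partners, 6 were above background in both genotypes, and 0 passed with genotype as the only term. Of the 6, 5 were lower in all 3 pairs and 1 was higher, with a median of -0.39. Among all genes above background, 15.1% were lower and 14.5% higher in all 3 pairs. Meg3, from the Dlk1-Dio3 domain, was at -0.09, -0.12 and -0.62 in the pairs. With the replicate block 2 of 8 passed, where 0.0766% of all genes did, and both were lower: Dlk1, a relative of Notch ligands from the Dlk1-Dio3 domain (-0.95, limma SE 0.10, adjusted p = 0.0212), and Dcn, the proteoglycan decorin, imprinted in placenta (-1.93, SE 0.12, adjusted p = 0.000578). Cdkn1c, a maternally expressed CDK inhibitor, was at -0.49, -0.53 and -0.47 in the pairs and did not pass (adjusted p = 0.142). Igf2, the paternally expressed growth factor, was at -0.14 and Igf2r, its maternally expressed receptor, at 0.03. This list was put together with earlier results known, and its direction is no separate evidence.

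Of 46 other imprinted genes tested, 25 were above background in both genotypes, with a median of 0.02, and 0 passed in either fit. In all 3 pairs 2 of the 25 were lower and 4 were higher (15.1% and 14.5% of genes above background were). The smallest p was that of Htr2a, a serotonin receptor gene imprinted in some tissues, which was higher by 0.53, 0.54 and 0.52 in the pairs (limma with the block, SE 0.09, adjusted p = 0.101). Impact, a paternally expressed regulator of translation, was at 0.25 (SE 0.09).

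Genes that place or keep imprints had a median close to 0. Of 24 tested, 22 were above background, 0 passed in either fit, and their median was -0.06. In all 3 pairs 8 of the 22 were lower and 1 was higher (15.1% and 14.5% of genes above background were). Dnmt1, which copies methylation at cell division, was at -0.11, and its partner Uhrf1 at 0.11. Tet2, a dioxygenase that oxidizes methylcytosine, and Arid4a, a chromatin factor, had the smallest p, at -0.19 and -0.18.

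**Figure D4:**
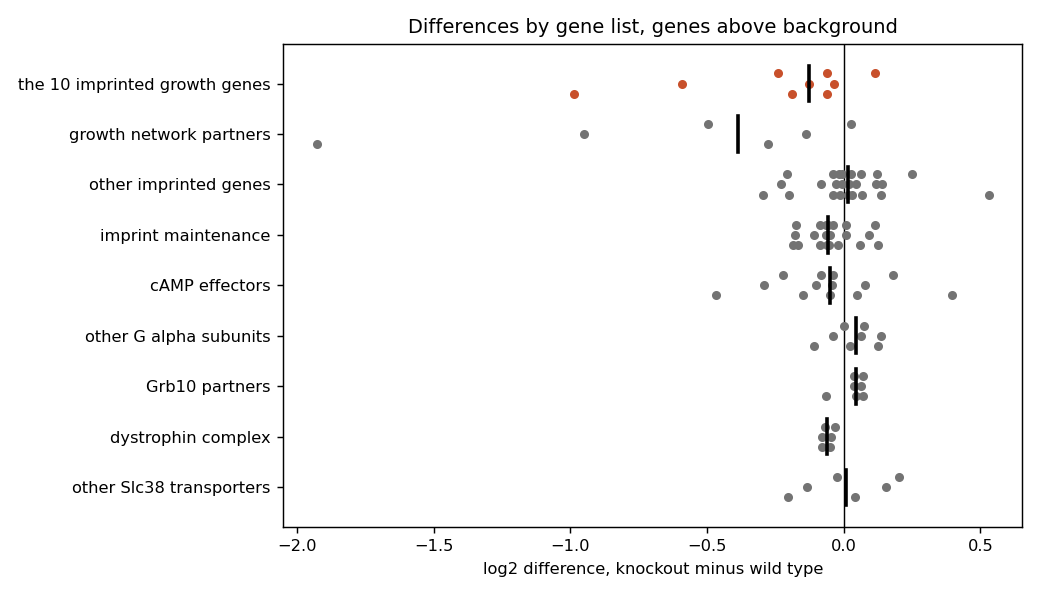
Log2 difference, knockout minus wild type (horizontal axis), of the genes above background in 9 gene lists, 1 point per gene with the median as a bar; the vertical scatter has no meaning. Dcn, a growth network partner, lies farthest to the left (-1.93), then Mest (-0.99), the partner Dlk1 (-0.95) and Peg3 (-0.59). The medians of the 7 lists other than the members and the growth network partners lie between -0.06 and 0.04.

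The genes beside the members on their chromosomes, taken as the nearest 3 tested on each side by order in the RefSeq table of GRCm38.p6 number 48. Of them, 22 were above background in both genotypes, 0 passed with the block, and their median was -0.01 (range -0.44 to 0.47). In all 3 pairs 3 of the 22 were lower and 4 were higher (15.1% and 14.5% of genes above background were). Aurkc, near Peg3, was lowest, at -0.55, -1.04 and 0.27 in the pairs, and Col1a2, near Sgce and Peg10, was at -0.11.

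Cell type markers were compared beside these values, and 0 of them passed the threshold in either fit. The 8 fibroblast markers had a median of -0.11, and 4 of them, Col1a2, Col3a1, Thy1 and Fbln1, were lower in all 3 pairs (15.1% of genes above background were). The collagen gene Col3a1 was at -0.61, -0.40 and -0.19 in the pairs (limma with the block, adjusted p = 0.432), the fibulin gene Fbln1 at -0.17, -0.50 and -0.41 (adjusted p = 0.473) and the receptor gene Pdgfra at -0.50, 0.06 and -0.64 (adjusted p = 0.675). Fn1, a matrix protein gene, was higher in all 3 pairs, with a mean of 0.14. The summed fibroblast level was 13.6 to 13.8 on the log2 scale in both genotypes, and most of it came from the bright probe sets of Vim and Fn1.

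The 7 skeletal muscle markers had a median of 0.17 (0.22 over the 4 above background in both genotypes). Their summed level was 9.546 to 9.786 in wild type and 9.796 to 10.18 in the knockout, apart by a very narrow margin only. Such a sum weighs the brightest probe sets most, and whether the genotypes differ in it was not tested. Of these 7, 2 were above background on all arrays, Acta1 (-0.04, 0.14 and 0.70 in the pairs) and Des, and 2 on none, Myf5 and Myh3. The 7 neuronal markers had a median of -0.02, and the 5 of them above background in both genotypes one of 0.13. Among the neuronal genes, Stmn2, a regulator of microtubules, was higher in all 3 pairs (0.28, 0.21 and 0.95; adjusted p = 0.51 in limma with the block), and Tubb3, a tubulin, was at -0.09, 0.45 and 0.24. Their summed level was 8.10 to 9.14 in wild type and 8.21 to 9.40 in the knockout, and Elavl4 and Dcx were above background on no array. Trophoblast markers, with 1 of 5 above background on all arrays, had a median of -0.02. The part of fibroblast, muscle and neuronal transcripts in the Mest and Peg3 values was not tested.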

How the data were processed

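Total RNA was hybridized to Affymetrix arrays, 3 per genotype. The authors deposited 1 log2 signal for each probe set and array, made with Partek and RMA, per the submitters' processing notes; versions, parameters, the array's genome build and detection calls are not stated there or in the labels, and base 2 was inferred from the values' range. The number of arrays limits the precision.

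Of 41345 probe sets, 23521 named 1 gene, 1814 several and 16010 were not listed; 23328 were found by Entrez number in RefSeq (GRCm38.p6). Keeping the brightest probe set per gene left 22180 genes. A gene counted as above background in a genotype when its mean over the 3 arrays exceeded the mean background level and at least 1 array exceeded its own.

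Knockout was compared with wild type by limma 3.58.1 in R 4.3.3 (lmFit, eBayes, two-sided) over all genes, with Benjamini-Hochberg adjustment and a threshold of 0.05, and the code was tested on simulated data. Deviations of equal-numbered arrays from their genotype's mean correlated at 0.920, 0.895 and 0.973 over genes, above the bound of 0.1, so replicate number was also fitted as a block; this pairing comes from the data and rests on replicate 3, since the difference between replicates 1 and 2 correlated at 0.043 between genotypes. Named genes were the members, Pax7, list genes that passed or, failing that, the 2 of smallest p, chromosomal neighbours, and the genes most like the extreme members; other names, such as Igf1r, Igf2, Dnmt1, Uhrf1, the fibroblast and neuronal markers, the letters GTCACG and the comparison by rank, were chosen after their values were seen. The members and lists were chosen with earlier results of these data known. Alternatives covered blocks, left-out arrays, filters, probe set choice, scaling and variance estimation.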

Additional observations from a re-analysis of the deposited data

How the results depend on the processing

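With genotype only, 0 genes and 0 members passed in limma's fits in every setting without a block. With a block, the count of genes past the threshold was 17 (replicate block) and 19 (batch block), and 98, 2 and 4 without replicates 1, 2 and 3; with settings added after the data were seen it was 15 (quantile normalization), 11 (arrays scaled to 1 interquartile range), 34 (only genes above background), 16 (mean of probe sets) and 46 (trended, robust variance). The count of members was 0 with the replicate block, which changed no member's call. It was 1, Mest, with the batch block and with the replicate block without replicate 1, and 2, Mest and Peg3, with only genes above background and with the trended, robust variance.

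Dropping a single array unbalances replicate 3 between the genotypes when no block is fitted. The median of the 10 members then ran from -0.55 (without knockout replicate 3) to 0.12 (without wild type replicate 3), with -0.42, -0.05 and -0.02 without wild type replicate 1, knockout replicate 1 and knockout replicate 2. Ranges over single left-out arrays crossed 0 for Sgce (-0.59 to 0.27), Plagl1 (-0.52 to 0.13), Ndn (-0.36 to 0.25), Gnas (-0.133 to 0.0395) and Slc38a4 (-0.65 to 0.56) and did not for Mest (-1.31 to -0.65), Peg3 (-0.97 to -0.28), Grb10 (-0.33 to -0.05) and Peg10 (0.08 to 0.13). With the replicate block, leaving out a number turned the sign of Slc38a4 alone (0.0595 without replicate 2, -0.11 at the lowest), and the median of the 10 was -0.19 to -0.10. Scaling and filters turned no member's sign. Zim1 has no value here, since its knockout mean was not above background.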
